A study of Mus musculus with 18 samples.

Results

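Expression of 8 genes that mark the start of neurogenesis was followed along the body axis of the mouse embryo at embryonic day 9. The genes were Neurog1, Neurog2, Neurod1, Isl1, Mnx1, Lhx3, Lhx4 and Tubb3. They were chosen by name, as the rows of the expression table whose Ensembl identifiers map to these symbols, and all 8 were found among the 53465 genes of the table. Bulk poly(A) RNA sequencing had been done on 18 libraries from 9 embryos with 20 to 24 somites, in a study that asked which genes Meis1 and Meis2 act on in axial patterning. Of these embryos, 5 were controls and 4 were double mutants (DKO), in which Meis1 and Meis2 were conditionally deleted with Delta1Cre. This Cre recombinase is named for the Notch ligand gene Delta1 (Dll1), which is active in presomitic mesoderm and in differentiating neural cells. The alleles of the controls, and whether they carried Cre, are not given in the sources used here. Each embryo was divided into a posterior piece, which held the axial bud and the youngest somites, and an anterior piece, which held the older part of the axis with somites, while the region in front of the somites was discarded. Each region thus had 5 control and 4 DKO libraries. Mean somite number was 22.2 in the control and 22.25 in the DKO embryos.

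In the neural tube, proneural transcription factors of the basic helix-loop-helix (bHLH) class drive dividing progenitors out of the cell cycle and toward a neuronal fate, and they raise Notch ligands that hold neighbouring cells in the progenitor state. Neurog1 and Neurog2 act early in this sequence in the spinal cord and in sensory ganglia, and Neurod1 follows them in differentiating neurons. LIM homeodomain factors then fix neuronal identity: Isl1 with Lhx3 specifies motor neurons, Lhx4 works beside Lhx3, and the homeodomain factor Mnx1 (HB9) maintains motor neuron identity. Tubb3 encodes the class III beta-tubulin of postmitotic neurons. Some of these genes are not restricted to neurons: Isl1 is also known from posterior lateral plate mesoderm, the hindlimb field and heart progenitors, and Mnx1 from notochord, tail gut and pancreas.

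Promoter windows of 3 members are shown: Mnx1 and Isl1, the members with a higher posterior level in the controls, and Neurog2, the member with the smallest p for DKO against control in the anterior piece, which did not pass the adjusted threshold. Each window is the 250 bases before the RefSeq start site (RefSeq, GRCm38.p6), written 5′ to 3′ on the strand of the gene. Capitals mark TGACAG, the core of Meis binding sites, and CANNTG, the E-box bound by bHLH factors, both searched on either strand. The Neurog2 window is chr3:127632886-127633135, plus strand, the Mnx1 window is chr5:29478471-29478720, minus strand, and the Isl1 window is chr13:116309689-116309938, minus strand.
Neurog2: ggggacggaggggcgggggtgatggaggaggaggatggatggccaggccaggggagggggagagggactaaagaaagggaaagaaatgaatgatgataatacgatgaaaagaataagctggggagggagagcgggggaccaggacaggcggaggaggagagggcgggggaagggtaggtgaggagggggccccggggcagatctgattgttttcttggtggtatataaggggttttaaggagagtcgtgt
Mnx1: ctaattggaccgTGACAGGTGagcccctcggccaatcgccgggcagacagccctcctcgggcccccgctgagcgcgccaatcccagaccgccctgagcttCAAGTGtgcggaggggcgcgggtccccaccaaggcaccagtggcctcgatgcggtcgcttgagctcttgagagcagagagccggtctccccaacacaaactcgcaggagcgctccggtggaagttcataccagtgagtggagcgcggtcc
Isl1: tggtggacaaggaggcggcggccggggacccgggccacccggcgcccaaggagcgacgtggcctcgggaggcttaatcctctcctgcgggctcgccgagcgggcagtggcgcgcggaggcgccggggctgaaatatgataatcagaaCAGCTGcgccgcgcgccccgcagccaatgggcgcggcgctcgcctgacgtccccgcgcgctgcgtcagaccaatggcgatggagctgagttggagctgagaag
In the Mnx1 window, TGACAG began 238 bases before the start and overlapped the E-box CAGGTG, which began at 235 bases. A second Mnx1 E-box, CAAGTG, began at 150 bases. The Isl1 window held 1 E-box, CAGCTG, at 103 bases, and the Neurog2 window held none of these letters. The 8 members had 9 such windows, with 2 start sites for Lhx3. TGACAG was present in 1 of the 9, against 15.9% of all 32841 RefSeq windows of this length, and CANNTG in 4 of the 9, against 66.2%. A match of letters does not show that a factor binds there.

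Levels are CPM, expected counts per megacount after TMM scaling, from total expected counts of 12.7 to 38.2 megacounts (M) per library. The floor of 3 counts was 0.0791 to 0.233 CPM and covers counting error only. Meis1 and Meis2 transcripts were lower in the DKO groups but still present, with means of 102 against 125 CPM (Meis1) and 143 against 190 CPM (Meis2) in the anterior piece, and of 57.5 against 84.5 CPM and 99.5 against 143 CPM in the posterior piece. Gene counts do not tell a deleted transcript from an intact one, and how many cells had recombined is not given. Both libraries of 1 control embryo (control 1) went against the sex given in their labels, so each comparison that uses it is also given without it. Embryos are told apart only by genotype, sex label and somite number. In these bulk libraries, fewer neurons and less RNA per neuron cannot be told apart.

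Compared per kilobase of exon, Tubb3 had the highest level of the 8 genes in the anterior controls, at 51 ± 12.1 CPM per kb (SD, n = 5). Neurog2 came next at 16.3 ± 0.514 and then Neurog1 at 9.58 ± 2.07 CPM per kb. Isl1 at 2.86 ± 0.839 and Neurod1 at 2.61 ± 0.69 CPM per kb lay within their spread of each other. The 3 lowest, Mnx1, Lhx3 and Lhx4, at 1.39 ± 0.408, 1.32 ± 0.503 and 1.16 ± 0.471 CPM per kb, did not differ beyond their spread either. The general neuron marker and the neurogenins thus took the first 3 places, with Isl1 and Neurod1 between them and the 3 lowest. In the posterior controls the top of the order closed up: Tubb3 (8.83 ± 1.79), Neurog2 (8.72 ± 2.01) and Isl1 (6.06 ± 0.899 CPM per kb) lay within the summed spread of neighbours. Mnx1 followed at 2.41 ± 0.68, Neurog1 at 1.19 ± 0.454, Lhx3 at 0.276 ± 0.121, Neurod1 at 0.275 ± 0.118 and Lhx4 at 0.0374 ± 0.0327 CPM per kb. Isl1 and Mnx1 were therefore at places 4 and 6 of the anterior and at places 3 and 4 of the posterior order. The DKO groups had Tubb3, Neurog2 and Neurog1 in the first 3 places of the anterior order and Tubb3, Neurog2 and Isl1 in those of the posterior order.

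**Figure D1:**
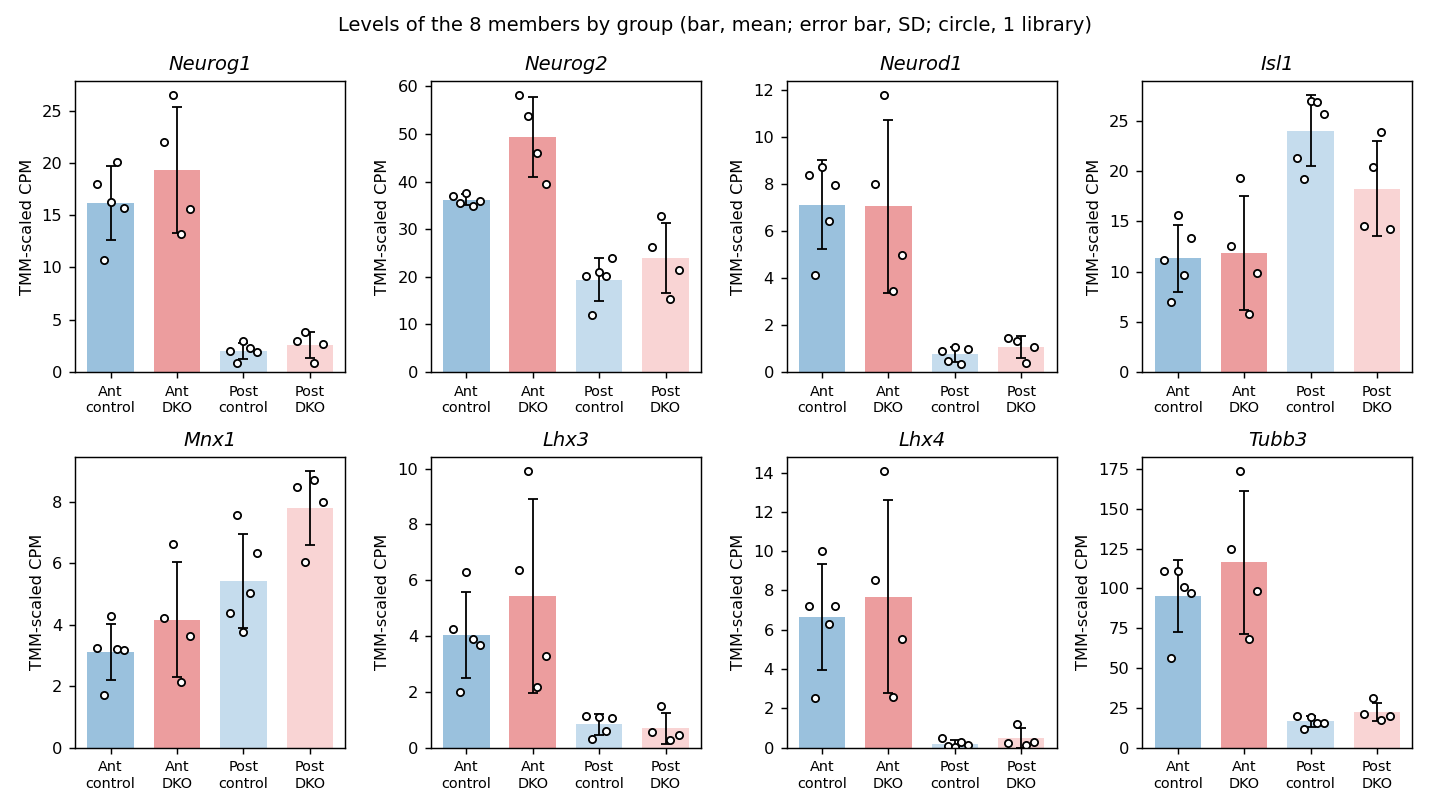
Levels of the 8 genes in TMM-scaled CPM on a linear axis from 0, with 1 circle per library, bars at the group mean and error bars of 1 SD (n = 5 control, n = 4 DKO). In 6 panels both posterior groups lie below both anterior groups, while Isl1 and Mnx1 have higher posterior means; the Neurog2 circles of the anterior DKO lie above those of the anterior controls.

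The comparison of the posterior with the anterior piece in the controls asked where along the axis these genes were active. All 8 genes passed the test (edgeR, adjusted p under 0.05), against 25.4% of the 15294 genes tested. Neurog1, Neurog2, Neurod1, Lhx3, Lhx4 and Tubb3 were lower in the posterior piece, and Isl1 and Mnx1 were higher. Without control 1, 7 of the 8 were called, against 19% of all genes in that fit. The median difference of the 8 genes was −2.38 on the log2 scale, beside −0.01 over all genes tested. Of the 8, 7 had control groups that did not overlap, against 20.1% of all genes.

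Among the proneural factors, Neurog1 measured 18, 10.7, 16.3, 20.1 and 15.7 CPM in the anterior and 1.98, 0.859, 2.98, 2.28 and 1.9 CPM in the posterior libraries of control embryos 1 to 5. Every posterior value was below every anterior one, and the log2 difference was −3.01 (SE 0.26, edgeR adjusted p = 3.66e-06). Neurod1, which acts downstream of the neurogenins, had 4.14 to 8.71 CPM in the anterior and 0.34 to 1.06 CPM in the posterior controls, a log2 difference of −3.26 (SE 0.313, edgeR adjusted p = 8.68e-06). Neurog2 differed least: its 5 anterior values were 34.9 to 37.7 CPM and its posterior values 11.9 to 23.9 CPM, a log2 difference of −0.90 (SE 0.14, edgeR adjusted p = 0.000423). Neurog2 thus kept 0.536 of its anterior mean level in the posterior piece, while Neurog1 kept 0.124 and Neurod1 0.105. Relative to 100 CPM of the summed progenitor factors, which were also lower in the posterior piece, Neurog2 stood at 3.57 ± 0.336 CPM (SD, n = 5) in the anterior and 3.82 ± 0.595 CPM (n = 5) in the posterior controls, within their spread. On the same scale Neurog1 stood at 1.58 ± 0.288 and 0.392 ± 0.138 CPM and Neurod1 at 0.704 ± 0.205 and 0.148 ± 0.0576 CPM. Exons of Neurod1 share 201 bases with Cerkl on the same strand and 154 bases with the opposite-strand Gm26755, and whether counting used the strand is not given, so its counts are less certain.

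The neuron marker Tubb3 measured 111, 56.4, 111, 101 and 97.2 CPM in the anterior and 20.2, 12, 19.4, 15.3 and 15.5 CPM in the posterior libraries of controls 1 to 5. The regions did not overlap, and the log2 difference was −2.52 (SE 0.19, edgeR adjusted p = 1.27e-06). The LIM factor Lhx3 had 2.01 to 6.3 CPM in the anterior and 0.301 to 1.13 CPM in the posterior controls, a log2 difference of −2.25 (SE 0.365, edgeR adjusted p = 0.000591). Its relative Lhx4 was hardly detected in the posterior piece. Lhx4 had 2.52 to 10 CPM in the anterior controls and 0.0504 to 0.501 CPM, or 1 to 19 counts, in the posterior controls, where 3 of 5 libraries were at or below the floor. The fitted log2 difference of −4.71 (SE 0.489, edgeR adjusted p = 1.59e-05) is therefore imprecise in size. Lhx3 shares 188 exon bases with the antisense gene Gm27196.

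Isl1 and Mnx1 ran the other way. Isl1 measured 11.1, 6.93, 15.6, 9.66 and 13.3 CPM in the anterior and 21.3, 19.2, 27, 26.9 and 25.7 CPM in the posterior libraries of controls 1 to 5. Every posterior value exceeded every anterior one, with a log2 difference of 1.10 (SE 0.186, edgeR adjusted p = 0.000815). Mnx1 measured 3.23, 1.7, 4.28, 3.22 and 3.17 CPM in the anterior and 4.38, 7.56, 3.78, 5.04 and 6.35 CPM in the posterior libraries. Its groups overlapped, since the posterior value of control 3 lay below the anterior value of the same embryo, and the log2 difference was 0.81 (SE 0.249, edgeR adjusted p = 0.0303). The Mnx1 call was lost when control 1, 2, 4 or 5 was left out (log2 differences of 0.90, 0.49, 0.85 and 0.77, with edgeR adjusted p = 0.0616, 0.107, 0.0863 and 0.101), and over 11 alternatives its adjusted p ran from 0.0072 to 0.107.

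In the DKO embryos 6 of the 8 genes passed the same test, against 18.5% of the 15777 genes tested, and 6 had regions that did not overlap, against 23.5%. The 6 called genes were lower in the posterior piece, with log2 differences of −2.87 for Neurog1, −1.03 for Neurog2, −2.71 for Neurod1, −2.89 for Lhx3, −3.87 for Lhx4 and −2.37 for Tubb3. Of these, Lhx3 had an adjusted p of 0.0535 (edgeR) at a log2 difference of −2.70 when DKO 1 was left out. Isl1 at 0.63 (SE 0.314, edgeR adjusted p = 0.223) and Mnx1 at 0.91 (SE 0.284, edgeR adjusted p = 0.0514) did not pass. The Mnx1 difference passed in DESeq2, in limma-voom, with no filter on low counts and without DKO 2 (1.31, edgeR adjusted p = 0.00753). Whether the regional difference itself depended on genotype was tested as an interaction over all 18 libraries. None of the 8 genes passed, as did 0% of the 16428 genes tested. No member had an unadjusted p under 0.05 in the interaction (edgeR), against 3.45% of all genes, while DESeq2 called 10 genes, none of them a member. The interaction estimates ran from −0.65 (Lhx3, interval −2.02 to 0.72) to 0.84 (Lhx4, interval −0.86 to 2.54), and that of Isl1 was −0.47 (interval −1.21 to 0.27). Without control 1 these were −0.51 for Lhx3, 1.44 for Lhx4 and −0.51 for Isl1, the Mnx1 estimate went from 0.09 to −0.00, and none was called.

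Within embryos the direction was steady for 7 of the genes. The posterior level was below the anterior level in 9 of 9 embryos for Neurog1, Neurog2, Neurod1, Lhx3, Lhx4 and Tubb3, and above it in 9 of 9 embryos for Isl1. Mnx1 was higher in the posterior piece of 7 embryos and lower in the other 2, which were both embryos with 24 somites (−0.17 in control 3 and −0.14 in DKO 2). The posterior excess of Mnx1 was largest in both embryos with 20 somites, at 2.09 in control 2 and 1.98 in DKO 3 on the log2 scale. Isl1 showed differences of 1.46 and 2.03 in those same embryos and of 0.79 and 0.08 at 24 somites. The youngest embryos thus had the largest regional contrast for Mnx1, and the oldest had almost none.

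**Figure D2:**
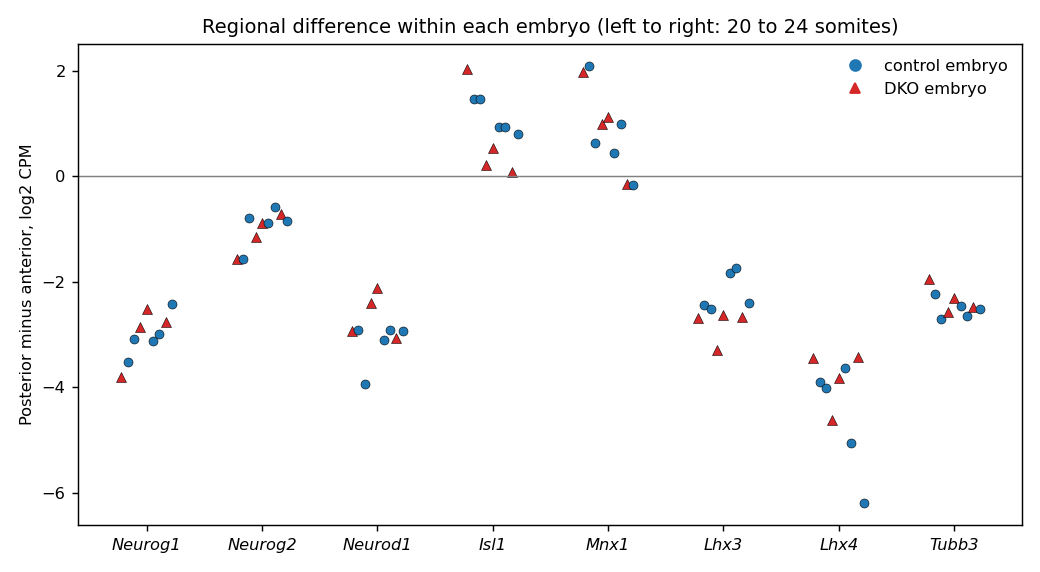
Posterior minus anterior log2 CPM for each gene, with 1 symbol per embryo (circles, 5 controls; triangles, 4 DKO), ordered from left to right by somite number within each gene. 6 genes lie below 0 in all 9 embryos, Isl1 lies above 0 in all 9, and Mnx1 goes from 2.09 and 1.98 at 20 somites to −0.17 and −0.14 at 24.

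Other neuronal genes were compared in the same way in the controls. Of 7 other proneural and neuronal bHLH factors tested, 6 were lower in the posterior piece, with a list median of −3.58 on the log2 scale. Of 8 other motor neuron genes, 7 were lower and Ret, a receptor tyrosine kinase for the GDNF family, was higher at 1.44 (SE 0.158, edgeR adjusted p = 2.48e-05). Interneuron identity factors were divided: of 9 tested, 3 were higher in the posterior piece (Pax2, Gata3 and Lhx1, which are also active in the intermediate mesoderm that forms the kidney) and 3 were lower, with a median of −0.45. Of 25 other genes of postmitotic neurons, 24 were lower and Ncam1, a cell adhesion molecule, was 2.01-fold higher (SE 0.0614 on the log2 scale, edgeR adjusted p = 2.55e-07). The 15 progenitor factors were called lower in 14 cases, with a median of −0.96, beside −2.10 for the postmitotic list and −0.01 over all genes. Of 19 Notch pathway genes, 7 were higher in the posterior piece and 3 lower. The ligands Dll1 (1.05) and Dll3 (1.87) were higher and the effector Hes5 was lower at −1.57 on the log2 scale, while the effectors Hes1 (0.61) and Hey1 (0.78), chosen after their values were seen, were higher.

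Markers of other tissues are given beside Isl1 and Mnx1, some higher and some lower in the posterior piece. All 10 axial bud markers were called higher in the posterior controls, where their sum was 366 to 682 CPM against 26.9 to 34 CPM in the anterior controls, and Cdx4 was at 50.1 to 128 CPM against 0 to 0.31 CPM. Of 9 limb field and lateral plate markers, 4 were higher and 1 lower, with sums of 141 to 218 CPM against 63.3 to 143 CPM. The hindlimb field factors Tbx4 and Pitx1 had 11.3 to 30.3 and 36.6 to 65.5 CPM in the posterior and 0 to 0.311 and 0 to 1.87 CPM in the anterior controls. Of 6 gut endoderm markers tested, 3 were higher and 1 lower, with sums of 91.9 to 143 CPM against 53.2 to 79.2 CPM. The lower one, Foxa2, lost its call with no filter and without control 1, 3, 4 or 5 (edgeR adjusted p up to 0.118). Of 7 notochord markers, 1 was higher (Noto, at 3.27 to 5.1 CPM against 0 to 0.0778 CPM) and 1 lower, and their sums overlapped at 219 to 250 and 225 to 262 CPM. Of 7 heart markers tested, 4 were lower, with sums of 9.66 to 37.1 CPM in the posterior and 33 to 52.9 CPM in the anterior controls. Among these 4, Actn2 lost its call without control 1, 3 or 4 (edgeR adjusted p = 0.11, 0.0721 and 0.0623). The part of these tissues in the levels of Isl1 and Mnx1 was not tested.

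The comparison of DKO with control embryos asked whether these genes changed after loss of Meis1 and Meis2. In the anterior piece none of the 8 genes passed the test, against 0.0394% of the 15238 genes tested (6 genes). By unadjusted p under 0.05 (edgeR), 1 of 8 members passed, against 13% of all genes, which is no larger a share. DESeq2 called 1 member, against 1.94% of all genes by DESeq2 (296 genes). That gene was Neurog2 in both. It measured 37, 35.5, 37.7, 34.9 and 36 CPM in controls 1 to 5 and 58.2, 53.7, 46.1 and 39.4 CPM in DKO 1 to 4. All 4 DKO values lay above all 5 control values. The groups of 5.07% of all genes did not overlap, counted in either direction, and no other member was among them. The log2 difference was 0.45 (SE 0.0968, interval 0.26 to 0.64, edgeR unadjusted p = 0.000724, adjusted p = 0.103), which ranked 106th of the genes tested.

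The Neurog2 difference passed the threshold in DESeq2 (adjusted p = 0.00307), with no filter on low counts (edgeR adjusted p = 0.0402) and without DKO 4 (0.54, edgeR adjusted p = 0.0405), and over 17 alternatives its size ran from 0.36 to 0.54 and its adjusted p from 0.00307 to 0.469. Without control 1 it was 0.46 (edgeR adjusted p = 0.188). Markers of other cells are given beside it. All 15 progenitor factors had positive estimates, with a median of 0.22 beside 0.00 over all genes, 10 of them with an unadjusted p under 0.05 and none called. Their sum was 933 to 1126.4 CPM in the controls and 1158.2 to 1270.6 CPM in the DKO. Relative to 100 CPM of that sum, Neurog2 stood at 3.57 ± 0.336 CPM (SD, n = 5) in the controls and 4.12 ± 0.613 CPM (n = 4) in the DKO, and these ranges overlapped. The Notch effector Hes5, which marks progenitors that receive Notch signals, was called higher at 0.66 (SE 0.0928, edgeR adjusted p = 0.0455), with 45.6 to 56 CPM in the controls and 69.3 to 95 CPM in the DKO. This call was lost when any of controls 1 to 5, DKO 1 or DKO 3 was left out, with edgeR adjusted p up to 0.162 at 0.58. In the posterior piece Hes5 had an estimate of 0.69 (SE 0.135, edgeR adjusted p = 0.196). There 10 of 19 Notch pathway genes were positive (median 0.04), with no call. Neural crest and sensory neuron markers were positive in 8 of 10 cases (median 0.32, 6 with an unadjusted p under 0.05), with sums of 154 to 174 CPM in the controls and 172 to 205 CPM in the DKO. Erythroid markers were positive in 0 of 8 cases (median −0.67). Among mesoderm markers, 3 of 9 somite markers had positive estimates (median −0.24, 7 with an unadjusted p under 0.05), with sums of 319 to 363 CPM in the controls and 216 to 304 CPM in the DKO. Of 7 limb and lateral plate markers 1 was positive (median −1.01), with sums of 63.3 to 143 CPM in the controls and 38.1 to 57.5 CPM in the DKO, and none of these lists held a call. The part of these cells in the Neurog2 difference was not tested.

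The other 7 members overlapped between genotypes in the anterior piece. Estimates were 0.26 for Neurog1 (interval −0.16 to 0.69), 0.08 for Isl1 (−0.53 to 0.68), 0.43 for Mnx1 (−0.18 to 1.05), 0.46 for Lhx3 (−0.36 to 1.27), 0.23 for Lhx4 (−0.64 to 1.09) and 0.29 for Tubb3 (−0.20 to 0.78), and the Neurod1 ratio of DKO to control was 0.999 (log2 interval −0.64 to 0.64). These intervals include both no difference and differences of 1.5-fold, so the data do not show that the genes were alike in both genotypes. Both groups were spread, and the SD in CPM was larger in the DKO, as for Tubb3 (44.8 against 22.6 CPM). DKO 2, with 24 somites, had the highest value of all 9 anterior libraries for Neurog1 (26.5 CPM), Neurod1 (11.8), Isl1 (19.3), Mnx1 (6.64), Lhx3 (9.93), Lhx4 (14.1) and Tubb3 (174 CPM). DKO 3, with 20 somites, was the lowest of the DKO for all 7. Control 2, also with 20 somites, was the lowest of the controls for all 7. It lay below DKO 3 for all but Neurod1 and Isl1, as for Tubb3 (56.4 against 68.5 CPM). The other neuronal lists gave no call either: 7 of 7 bHLH factors, 7 of 8 motor neuron genes and 18 of 25 postmitotic genes had positive estimates, with medians of 0.23, 0.18 and 0.18, but only 3 of 9 interneuron factors did, with a median of −0.56. Pax2, one of the latter and also active in the intermediate mesoderm, had an estimate of −1.31 (SE 0.3, edgeR adjusted p = 0.123). Sox21, another of them, had one of 0.38 (SE 0.0883, edgeR adjusted p = 0.128). The part of mesoderm in the interneuron list was not tested. Without control 1 the 7 estimates ran from 0.07 (Neurod1 and Isl1) to 0.48 (Lhx3), and none was called.

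In the posterior piece none of the 7 members tested was called, against 0.0126% of the 15936 genes (2 genes). Lhx4 was left out by the filter on low counts, with 1 to 35 counts in the 9 libraries. By unadjusted p under 0.05 (edgeR), 3 of the 7 passed, against 11% of all genes, and these were Isl1, Mnx1 and Tubb3. DESeq2 called no member, against 1.01% of all genes by DESeq2. No member had groups that did not overlap, against 4.29% of all genes. Isl1 measured 21.3, 19.2, 27, 26.9 and 25.7 CPM in controls 1 to 5 and 14.5, 20.4, 23.9 and 14.2 CPM in DKO 1 to 4, so that DKO 1 and DKO 4 lay below all controls. Its log2 difference was −0.39 (SE 0.169, edgeR unadjusted p = 0.0392, adjusted p = 0.451). Mnx1 measured 4.38, 7.56, 3.78, 5.04 and 6.35 CPM in the controls and 8.48, 6.04, 8.7 and 7.99 CPM in the DKO, where 3 of 4 values lay above all controls. Its log2 difference was 0.53 (SE 0.203, edgeR unadjusted p = 0.0245, adjusted p = 0.434). The motor neuron factors that shared a higher posterior level thus had estimates of opposite sign in the DKO.

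Tubb3 had 12 to 20.2 CPM in the posterior controls and 17.7 to 31 CPM in the posterior DKO, a log2 difference of 0.44 (SE 0.185, edgeR unadjusted p = 0.0358, adjusted p = 0.449). The remaining estimates were 0.38 for Neurog1 (interval −0.41 to 1.17), 0.31 for Neurog2 (−0.13 to 0.74), 0.53 for Neurod1 (−0.32 to 1.37) and −0.22 for Lhx3 (−1.22 to 0.78). The median of the 7 members was 0.38 beside 0.01 over all genes. Without control 1 the estimates were −0.44 for Isl1, 0.45 for Mnx1, 0.53 for Tubb3, 0.38 for Neurog1, 0.32 for Neurog2, 0.62 for Neurod1 and −0.06 for Lhx3, and none was called. Other neuronal lists were divided and gave no call: 5 of 5 bHLH factors (median 0.43), 15 of 24 postmitotic genes (0.14), 4 of 8 interneuron factors (0.05) and 3 of 7 motor neuron genes (−0.15) had positive estimates. The sum of the motor neuron list was 44.5 to 58.4 CPM in the DKO and 56.8 to 63.8 CPM in the controls. Of these 7 genes only Ret had an unadjusted p under 0.05, at −0.38 (SE 0.0912, edgeR unadjusted p = 0.00151, adjusted p = 0.252). Ret was also the only gene of that list called higher in the posterior controls, and its part in the sum was not tested. Progenitor factors were positive in 15 of 15 cases (median 0.32), somite markers in 2 of 10 (median −0.33) and erythroid markers in 8 of 8 (median 0.48, 6 with an unadjusted p under 0.05), and their part in the Tubb3 estimate was not tested. Beside Isl1, 1 of 8 limb and lateral plate markers had a positive estimate, with sums of 115 to 211 CPM in the DKO and 141 to 218 CPM in the controls, as did 1 of 8 heart markers (median −0.41). Beside Mnx1, 10 of 10 axial bud markers (sums of 413 to 737 against 366 to 682 CPM) and 5 of 6 notochord markers (median 0.22) had positive estimates. So did 8 of 9 gut endoderm markers (132 to 152 against 91.9 to 143 CPM). By unadjusted p under 0.05 (edgeR), 5 gut endoderm, 1 axial bud and 0 notochord markers passed. None of the markers in these lists was called. The part of these tissues in the Isl1 and Mnx1 estimates was not tested.

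**Figure D3:**
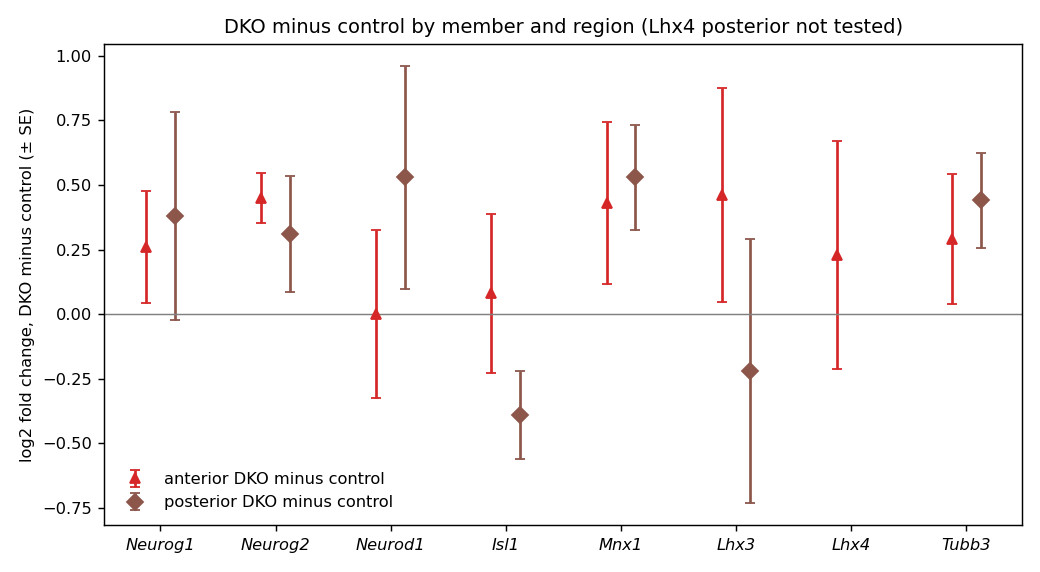
Log2 fold change of DKO minus control for each gene in the anterior (triangles) and posterior (diamonds) piece, with error bars of 1 SE from edgeR. No point passed the adjusted threshold; anterior Neurog2 at 0.45 has the smallest SE, and posterior Isl1 lies at −0.39 while posterior Mnx1 lies at 0.53.

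Along somite number the anterior slopes of the members were positive, but none passed the test. The slope per somite was fitted with genotype in the model over the 9 anterior libraries. None of the 8 slopes passed the adjusted threshold in edgeR, against 0.0328% of the genes tested (5 genes). All 8 were positive, while 50.8% of all genes were, and 6 of 8 had an unadjusted p under 0.05, against 12.9% of all genes. DESeq2 called 6 of the 8 slopes, against 2.31% of all genes by DESeq2 (352 genes). The median slope of the members was 0.30 log2 units per somite, beside 0.00 over all genes.

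Isl1 had the smallest p of the 8. Its anterior level was 6.93 and 5.77 CPM in the embryos with 20 somites (control 2 and DKO 3), 9.66 CPM at 21, 12.5 CPM at 22, 11.1, 13.3 and 9.85 CPM at 23, and 15.6 and 19.3 CPM at 24 somites. The lowest values were at 20 and the highest at 24 somites in both genotypes. Its slope was 0.31 per somite (SE 0.0538, edgeR unadjusted p = 0.000144, adjusted p = 0.0723), ranked 27th of 15238 genes. Lhx4 went from 2.52 and 2.6 CPM at 20 somites to 10 and 14.1 CPM at 24, with a slope of 0.45 (SE 0.0899, edgeR adjusted p = 0.111). Lhx3 went from 2.01 and 2.19 CPM to 6.3 and 9.93 CPM, with a slope of 0.37 (SE 0.0985, edgeR adjusted p = 0.166). Mnx1 (1.7 and 2.14 CPM at 20, 4.28 and 6.64 CPM at 24 somites) had a slope of 0.30 (SE 0.0675, edgeR adjusted p = 0.122). Differences in slope between genes were not tested.

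Neurod1 had a slope of 0.30 (SE 0.072, edgeR adjusted p = 0.129), with means of 3.8 CPM at 20 and 10.2 CPM at 24 somites. Neurog1 had a slope of 0.14 (SE 0.0653, edgeR adjusted p = 0.405), and Neurog2 one of 0.02 (SE 0.0336, edgeR adjusted p = 0.872), with 34.9 to 37.7 CPM in the controls at any stage. Tubb3 had a slope of 0.24 (SE 0.0541, edgeR adjusted p = 0.125), with means of 62.4 and 142 CPM at 20 and 24 somites. Neurog2 thus had the smallest anterior slope estimate of the 8. Other gene lists gave no call: 25 of 25 postmitotic neuron genes had positive slopes (median 0.18, 18 with an unadjusted p under 0.05), as did 7 of 7 bHLH factors (median 0.22), 7 of 8 motor neuron genes (median 0.22) and 8 of 9 interneuron factors (median 0.24), while 5 of 15 progenitor factors did (median −0.02). Heart (6 of 7, median 0.20) and erythroid markers (8 of 8, median 0.24) also had mostly positive slopes, and their part was not tested. Ina, a neuronal intermediate filament, had a slope of 0.42 (SE 0.0759, edgeR adjusted p = 0.0786), and Dcx, a microtubule protein of young neurons, one of 0.43 (SE 0.0789, edgeR adjusted p = 0.0809).

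The anterior slopes were smaller when the youngest embryos were left out together, an exclusion chosen after seeing the data. The embryos with 24 somites were not left out together, so whether the slopes rested more on the youngest embryos was not tested. No gene had an anterior slope called in edgeR without DKO 2 (24 somites), nor without control 2 or without DKO 3 (20 somites). Without both embryos of 20 somites, the anterior slopes were −0.03 for Neurog1, 0.00 for Neurog2, 0.20 for Neurod1, 0.25 for Isl1, 0.18 for Mnx1, 0.24 for Lhx3, 0.25 for Lhx4 and 0.10 for Tubb3, and none was called. Leaving out control 4, with 21 somites, gave 4 calls (Isl1, Mnx1, Lhx4 and Tubb3, with edgeR adjusted p = 0.0399, 0.0404, 0.0368 and 0.0368), against 0.881% of all genes in that fit (134 genes). Leaving out DKO 4 gave 1 call (Isl1, edgeR adjusted p = 0.0367), against 0.182% (28 genes). Without control 1 the slopes ran from 0.02 (Neurog2) to 0.46 (Lhx4), and none was called. The embryos with 20 somites and those with 24 were 2 each, 1 of each genotype, and the somite number of an embryo also sets which axial level falls into each piece, so stage and level cannot be told apart.

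**Figure D4:**
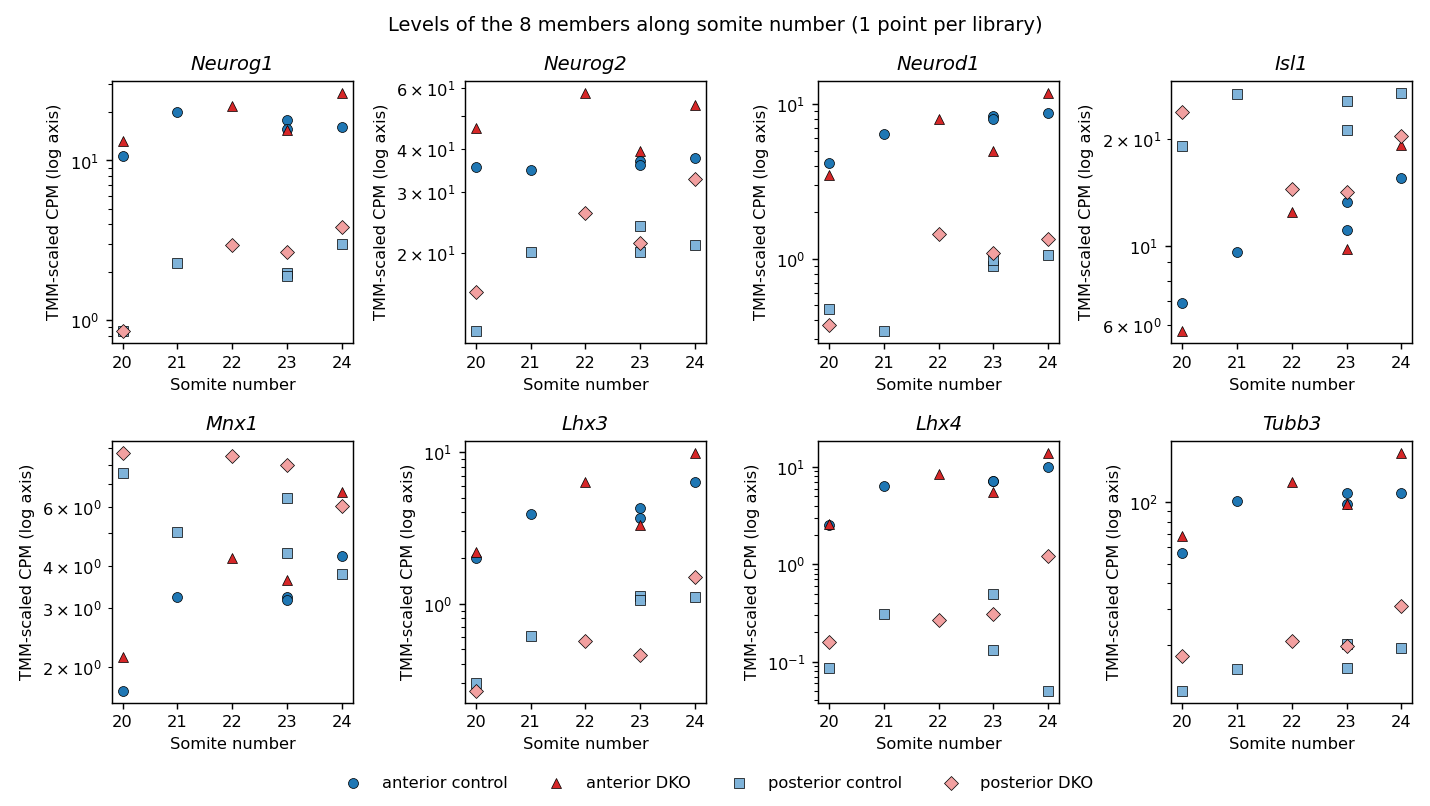
Level of each gene in TMM-scaled CPM (log axis) against the somite number of the embryo, with 1 point per library and the 4 groups by colour and symbol. Within each genotype, anterior Isl1, Mnx1, Lhx3 and Lhx4 are lowest at 20 and highest at 24 somites, anterior Neurog2 controls stay between 34.9 and 37.7 CPM, and posterior Mnx1 is highest at 20 somites in each genotype.

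In the posterior piece none of the 7 members tested had a slope past the adjusted threshold in edgeR, against 0.0126% of the genes tested (2 genes). DESeq2 called 2, Neurog2 and Tubb3, against 0.885% of all genes by DESeq2 (141 genes). By unadjusted p under 0.05 (edgeR), 6 of 7 passed, against 6.42% of all genes. Positive slopes were found for Neurog1 (0.37, SE 0.103), Neurog2 (0.20, SE 0.0519), Neurod1 (0.38, SE 0.117), Lhx3 (0.51, SE 0.113) and Tubb3 (0.17, SE 0.04), with edgeR adjusted p between 0.207 and 0.451. Neurog1 went from means of 0.857 CPM at 20 to 3.41 CPM at 24 somites, and Neurog2 from 13.7 to 26.9 CPM. Whether slopes differed between regions or genes was not tested. Mnx1 had a negative slope of −0.15 (SE 0.0556, edgeR adjusted p = 0.635), from a mean of 8.13 CPM at 20 to 4.91 CPM at 24 somites, and Isl1 one of −0.01 (SE 0.0573, edgeR adjusted p = 1). Beside Mnx1, 0 of 10 axial bud markers had a positive slope, with a median of −0.18 and no call, and their part in the Mnx1 slope was not tested. Progenitor factors (14 of 15, median 0.10), postmitotic neuron genes (20 of 24, median 0.12) and somite markers (9 of 10, median 0.22) had mostly positive slopes beside the other members. So did neural crest and sensory markers (9 of 9, median 0.12), heart (8 of 8, median 0.31), erythroid (8 of 8, median 0.15) and endothelial markers (7 of 7, median 0.11), with no call. By unadjusted p under 0.05 (edgeR), 5, 2, 6 and 4 of them passed, and their part was not tested. By the same measure 8 of 10 axial bud markers, 8 of 10 somite markers, 7 of 15 progenitor factors and 12 of 24 postmitotic neuron genes passed. Without control 1 the posterior slopes ran from −0.14 (Mnx1) to 0.50 (Lhx3), and none was called. Without both embryos of 20 somites the posterior slopes were 0.11 for Neurog1, 0.07 for Neurog2, 0.33 for Neurod1, 0.06 for Isl1, −0.14 for Mnx1, 0.45 for Lhx3 and 0.17 for Tubb3.

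**Figure D5:**
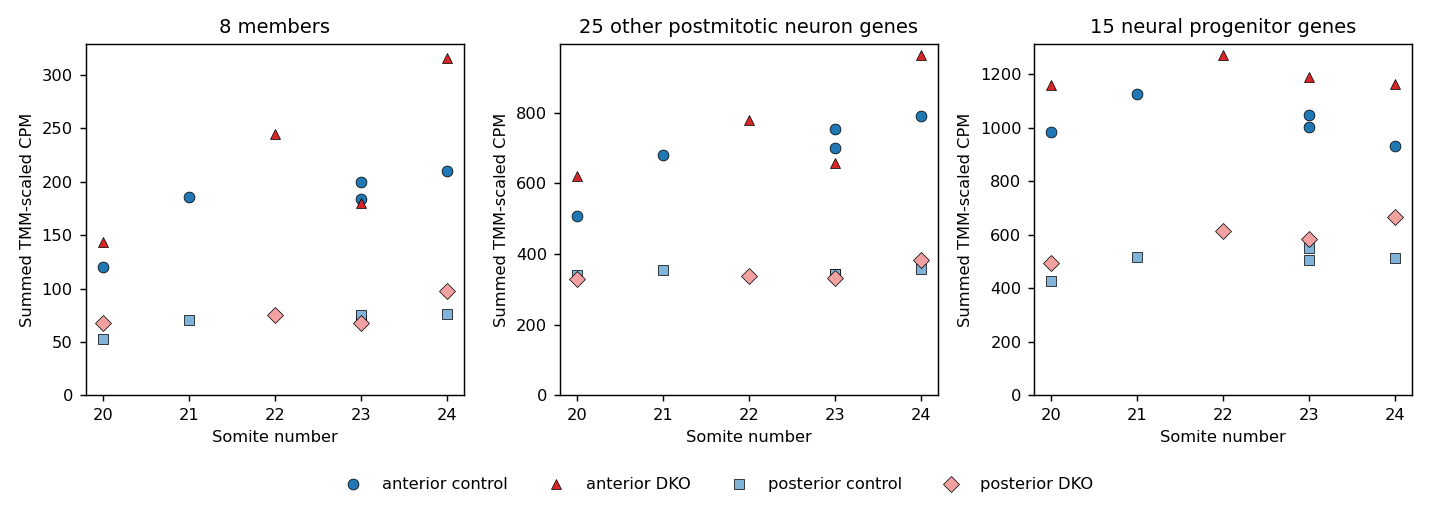
Summed TMM-scaled CPM of the 8 members (left), 25 other genes of postmitotic neurons (middle) and 15 neural progenitor factors (right) against somite number, with 1 point per library. Anterior sums of the members run from 120 and 144 CPM at 20 somites to 210 and 316 CPM at 24, while anterior progenitor sums stay within 933 to 1270.6 CPM.

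How the 8 genes varied with each other was described by Pearson's r of log2 CPM over the 18 libraries, taken as deviations from the 4 group means. The libraries share embryos, depth and stage, so these values are descriptions. Over the 28 pairs, r ran from −0.159 for Neurog2 and Mnx1 to 0.93 for Lhx3 and Tubb3. The neurogenins varied together (Neurog1 and Neurog2, r = 0.837), and Lhx3 varied with both Neurod1 (0.846) and Lhx4 (0.786). Isl1 was related to Tubb3 (0.743), Mnx1 (0.658) and Lhx3 (0.643), and less to Neurog1 (0.297) and Neurog2 (0.217). Mnx1 was related to Tubb3 at 0.439, to Lhx3 at 0.285 and to Neurog1 at 0.018.

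Among 11803 protein-coding genes with a mean of at least 50 counts, the profiles most like Lhx3 were those of Nhlh1 (r = 0.967), Scrt2 (0.945) and Srrm4 (0.938) over the same 18 libraries. Tubb3 was most like Pou4f1 (0.954), Dcx (0.934) and Aes (0.934), and Neurog1 most like Ckb (0.96), Prmt8 (0.959) and Nrep (0.931). Neurog2 was most like Olig2 (0.902), Pou3f3 (0.891) and Pou3f2 (0.891), of which Olig2 is a progenitor factor of the motor neuron domain. Neurod1 was most like Nhlh1 (0.888), Sytl2 (0.865) and Ina (0.864), and Lhx4 most like Myt1 (0.943), Tnnt3 (0.882) and Cadm4 (0.862). Isl1 was most like Ppp2r2c (0.883), Cntn2 (0.875), which encodes an axonal adhesion molecule, and Spock2 (0.853). Mnx1 was most like the Notch ligand gene Dll3 (0.897), Tnnt1 (0.856) and Lrrc4 (0.835). Genes of the postmitotic neuron list (Srrm4, Ina, Myt1 and Dcx) were among the 3 nearest profiles of Lhx3, Neurod1, Lhx4 and Tubb3, and Cntn2, near Isl1, is on the motor neuron list. Other near profiles, such as Tnnt3 for Lhx4, Tnnt1 for Mnx1 and Aes for Tubb3, are on none of the neuronal lists.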

How the data were processed

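The 18 libraries were poly(A) RNA (RNeasy Micro, NEBNext kit), read from a single end on a HiSeq instrument, per the labels' protocols. The authors deposited 1 table of expected counts from RSEM, with Ensembl genes as rows (GRCm38) and no scaling across libraries. CASAVA, cutadapt and RSEM are named in the submitters' processing notes, with no versions or aligner. Their use of the read strand is not given in the sources used here. Estimated counts in that deposited table are split where reads fit several genes, so overlapping genes are less certain.

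Symbols came from GENCODE M21, also on GRCm38, and matched all 8 members. After rounding, counts were fitted with edgeR 4.0.16 (R 4.3.3): filterByExpr with minimum count 10 and minimum total 15, TMM scaling, glmQLFit and glmQLFTest with Benjamini-Hochberg adjustment over all genes tested and a threshold of 0.05. SE is the log2 change divided by the square root of F, and intervals are the estimate ± 1.96 SE. Log2 CPM used a prior count of 2. Levels per kilobase used the union of exons of the transcripts the table lists. Fits used only the libraries compared (9 for DKO or somite number, 10 and 8 for regions, 18 for the interaction), and the somite fit included genotype. The code was tested on simulated data. No 2 of the 18 libraries held identical values.

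Samples carry no replicate numbers in the labels, so numbers follow accession order and libraries were matched to embryos on genotype, sex label and somite number. Deviations from group means correlated at 0.256 to 0.57 within the 9 embryos and at −0.283 to 0.0916 between embryos of 1 genotype. P-values measure the spread between these embryos. The 8 members were always named. From the other lists, up to 4 genes past the threshold or, with none, the 2 with the smallest p were eligible, and Dll1 and Dll3 fall under this rule. The 3 genes with the highest r over 18 libraries were named as most like a member. Members and lists were chosen with earlier results of these data known. Alternatives were RLE scaling, DESeq2 1.42.0, limma-voom (limma 3.58.1), no filter, a mean of at least 50 counts, somite number or sex label as a covariate, all 18 libraries in 1 fit, the embryo as a block, no genotype term, controls alone and each embryo left out. Promoters were read from RefSeq windows (GRCm38.p6).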

Additional observations from a re-analysis of the deposited data

Results flagged for a closer look

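In each of the 4 groups, each of the 8 genes was screened for a library far from the others by Dixon's ratio of the gap to the range, which gives 32 screens, and chance alone marks about 1 group in 20. In 2 of them a library stood apart. Lhx4 in the posterior DKO 2 library measured 1.22 CPM, while the other 3 posterior DKO libraries had 0.16 to 0.307 CPM, and the gap was 0.861 of the range. This embryo had 24 somites and the highest anterior Lhx4 level as well. Tubb3 in the anterior control 2 library measured 56.4 CPM, below 97.2 to 111 CPM in the other 4, with a gap of 0.747 of the range. This embryo had 20 somites, and its anterior levels of Neurog1, Neurod1, Isl1, Mnx1, Lhx3 and Lhx4 were also the lowest of the 5 controls.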

How the results depend on the processing

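The regional differences of the 8 genes kept their direction under every alternative run, and the calls that changed were those of Mnx1, and of Lhx3 without DKO 1. With the embryo as a replicate block, 8 members were called in the controls and 6 in the DKO, as without it (5136 and 3004 genes called), and 0 in the interaction, so the pairing changed no member's call. For DKO against control in the anterior piece, 6 genes were called in the main fit, 296 by DESeq2, 29 by limma-voom, 83 with no filter, 84 with somite number and 71 with sex label as a covariate, 19 with all 18 libraries and 1 to 57 with an embryo left out. Members called there were 1 by DESeq2, 1 with no filter and 0 to 1 with an embryo left out. The sex covariate used the labels as given, although both libraries of control 1 went against theirs. In the posterior piece 2 genes became 161 by DESeq2, 14 with no filter, 1 at a mean of 50 counts, 7 with somite number, 51 with all 18 libraries and 2 to 24 with an embryo left out. The interaction gave 10 genes by DESeq2 and 0 to 1 with an embryo left out, and the region fit in the DKO gave 1728 to 2550. The anterior slope gave 352 genes and 6 members by DESeq2, 162 and 4 with no filter, 9 genes at a mean of 50 counts, 0 with no genotype term, 1 in controls alone, 2 without both embryos of 20 somites, and 0 to 134 genes and 0 to 4 members with an embryo left out. The posterior slope gave 141 genes and 2 members by DESeq2, 29 genes with no filter, 0 in controls alone, 0 without both embryos of 20 somites and 0 to 29 with an embryo left out. That last exclusion was chosen after seeing the data. Some estimates of the members changed sign. Those for DKO and for the interaction had run from −0.22 (posterior Lhx3) to 0.23 (anterior Lhx4) in the main fit. The median of the 8 members in the anterior piece was 0.28. Anterior Neurod1 (DKO minus control) was 0.01 with no filter and −0.35 to 0.21 with an embryo left out, anterior Isl1 −0.24 to 0.30, anterior Lhx4 −0.22 to 0.50, posterior Lhx3 −0.92 to 0.03, and the Mnx1 interaction −0.17 to 0.50. The anterior Neurog1 slope, 0.14 in the main fit, was −0.03 without both embryos of 20 somites. The posterior Isl1 slope was 0.01 by limma-voom, 0.07 in controls alone, 0.06 without both embryos of 20 somites and −0.06 to 0.10 with an embryo left out. The cause of these shifts was not tested. Depth limits posterior Lhx4, Lhx3 and Neurod1 most, with as few as 1, 5 and 7 counts in a library.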
